A study of Meloidogyne incognita with 75 samples.

Results

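Male and pre_J2 animals of the southern root-knot nematode, Meloidogyne incognita, were compared by single-nematode RNA sequencing. They were chosen by library title and comprised 7 male and 5 pre_J2 libraries, 12 of the 75 libraries in the series. The males bear a second tag, J4_male, and no label states whether they had completed the last moult. The pre_J2 animals were hatched in vitro from eggs kept for about 3 days. The other 63 libraries held 12 par_J2, 14 J3, 8 J4, 14 J4_moulting, 8 J4_female and 7 adult female animals. Every animal was picked under a microscope, staged by its shape and lysed singly for a Smart-seq2 library, which copies messenger RNA from a very small input. The labels give no strain, host, age or sequencing batch for any stage, and no sex for the J4_moulting animals. Library titles state a sex only for the male, female and J4_female animals.

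In root-knot nematodes, the second-stage juvenile leaves the egg worm-shaped, moves through soil and enters a root near its tip. There it induces giant feeding cells, swells and stays in place through its later moults, and females remain in the root as rounded, feeding adults. Males return to a worm shape before they leave the root, and are thought not to feed. The freshly hatched juvenile and the male are thus the mobile, worm-shaped ends of the life cycle, one before feeding and one after it. The comparison addresses what differs between them and what both share against the sedentary stages. The files pair no names with the transcript identifiers, so functions, cell type markers and sequences are not given, and the stage labels were not checked against marker genes.

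Total counts ran from 17927727 to 27648667 in males and from 5012541 to 18934461 in pre_J2, a difference in means that passed a two-sided exact permutation test (p = 0.00253). Transcripts with a count numbered 25832 ± 3342 in males and 22710 ± 3183 in pre_J2 (SD, n = 7 and 5), and this difference did not pass (exact p = 0.134). Without male 4, which had the fewest of the males, the difference passed (exact p = 0.0195), and likewise without pre_J2 1 (exact p = 0.0485). After thinning every library to 3000000 counts, males exceeded pre_J2 by 1848 transcripts (exact p = 0.348). The 50 most abundant transcripts took 26.9 ± 9.80% of counts in males and 38.9 ± 4.22% in pre_J2 (exact p = 0.0366). That share spread widely among the males. Males 2, 3 and 4 stood at 40.6, 33.6 and 35.0%, within the pre_J2 range of 33.2 to 44.6%, male 1 at 27.3%, and males 5, 6 and 7 at 17.5, 16.9 and 17.5%. Leaving out male 1, 5, 6 or 7 or pre_J2 4 or 5 moved the p above 0.05, with exact p between 0.0606 and 0.0818.

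All 12 animals resembled their own stage most. The Spearman correlation of counts over 39623 transcripts had a median of 0.735 among males (range 0.610 to 0.864, 21 pairs) and of 0.638 among pre_J2 (range 0.597 to 0.698, 10 pairs). Between a male and a pre_J2 it had a median of 0.472 and never passed 0.530. The mean correlation within the stages exceeded that between them by 0.237, and no other arrangement of the 12 libraries came as far (exact p = 0.00126, the smallest that 7 against 5 allows).

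Despite the shared body form, each stage was the other's most distant. In 7 of 7 males the lowest of the stage medians was the one with pre_J2, and in 5 of 5 pre_J2 it was the one with male. Over all pairs, males correlated with the 6 other stages at medians of 0.590 (par_J2), 0.621 (J3), 0.585 (J4), 0.657 (J4_moulting), 0.625 (J4_female) and 0.594 (female). The corresponding medians of pre_J2 were lower, at 0.503, 0.554, 0.545, 0.538, 0.515 and 0.505 in the same order. Taken animal by animal, the nearest of the 6 stages by median was J4_moulting for 5 of 7 males and J4_female for 2, and it was J4 for 3 of 5 pre_J2 and J3 for 2. These are descriptions, since pairs share libraries.

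**Figure D1:**
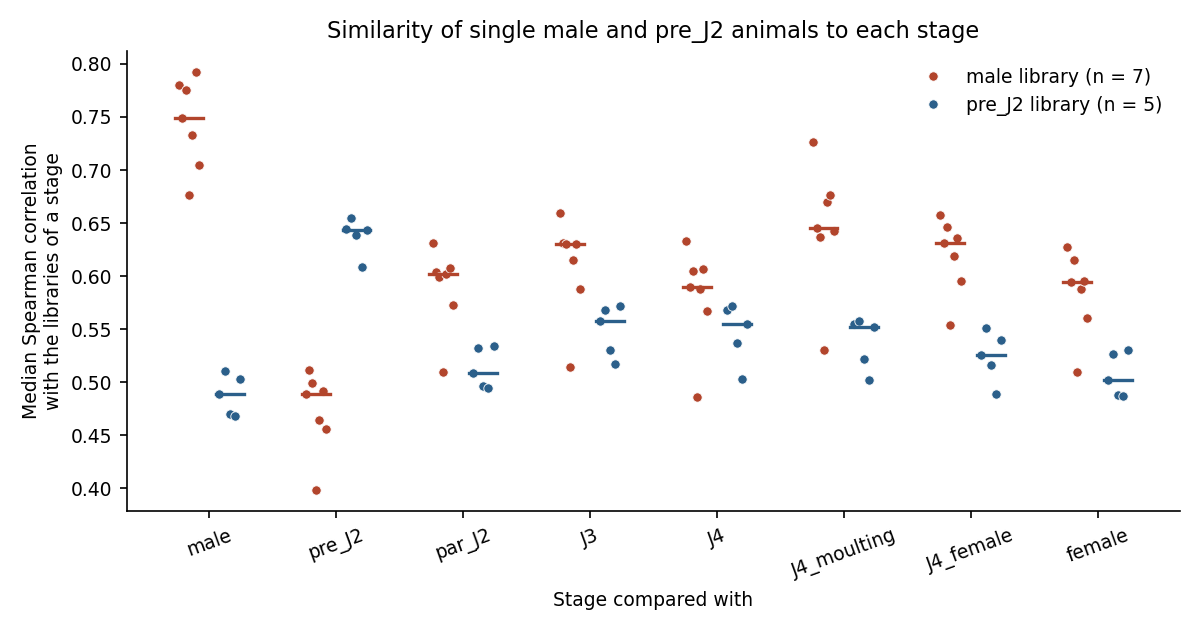
Median Spearman correlation (y axis) of each male library (red, left of each position) and each pre_J2 library (blue) with the libraries of each stage (x axis), lines marking the median of the points. Every animal stood highest with its own stage, and males and pre_J2 stood lowest with each other.

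The males also varied among themselves, which bears on several results below. Correlations of males 2, 3 and 4 with males 5 and 7 ran from 0.610 to 0.704. Males 2, 3 and 4 correlated with each other at 0.704 to 0.864, males 1 and 6 at 0.864 and males 5 and 7 at 0.773. Male 4, which had the fewest transcripts detected, correlated with the other males at 0.610 to 0.735. The labels name no feature that separates these animals. The main counts of calls are given with and without males 2, 3 and 4, and with and without males 5 and 7.

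Between male and pre_J2, 4127 of 25331 transcripts tested differed (16.3%), at an adjusted p under 0.05 by edgeR's quasi-likelihood test and a change of at least 1 on the log2 scale. Of these, 2366 were higher in male (9.34%) and 1761 lower (6.95%). The changes were large, with a median log2 fold change of 5.87 for the higher and -4.93 for the lower transcripts, against 0.30 for all tested. These medians place transcripts without any count in a stage at the bound set by 3 counts over that stage. By the same reckoning, 883 higher and 483 lower transcripts differed 100-fold or more. Each library is a whole animal, so fewer cells of a type and less RNA per cell cannot be told apart. The fit resolved large changes best, since the 95% interval of a fold change was 5.69 log2 units wide at the median.

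Presence in one stage and absence from the other accounted for part of the difference. Of the transcripts higher in male, 879 (37.2%) had no count in any pre_J2, against 895 (3.53%) of all tested. Of those lower in male, 148 (8.40%) had none in any male, against 148 (0.58%) of all tested. Such transcripts passed the low-count filter through the other stage alone. The pre_J2 libraries were fewer and had lower totals, and the effect of this on the counts was not tested. Among all transcripts, 415 were counted in all 7 males and in no pre_J2, and 159 in all 5 pre_J2 and in no male. The male and pre_J2 animals did not overlap in CPM for 1478 of the higher transcripts (62.5%) and 1242 of the lower (70.5%), against 2383 (9.41%) and 1507 (5.95%) in the same directions among all tested. The calls were chosen on these levels, so both counts describe the lists.

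Without males 2, 3 and 4, 1690 transcripts were higher and 1693 lower, and without males 5 and 7, 1760 were higher and 1146 lower. With library totals alone in place of TMM normalization, the split was 2836 higher to 1361 lower, and the median of all tested transcripts was 0.70 in place of 0.30 on the log2 scale.

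**Figure D2:**
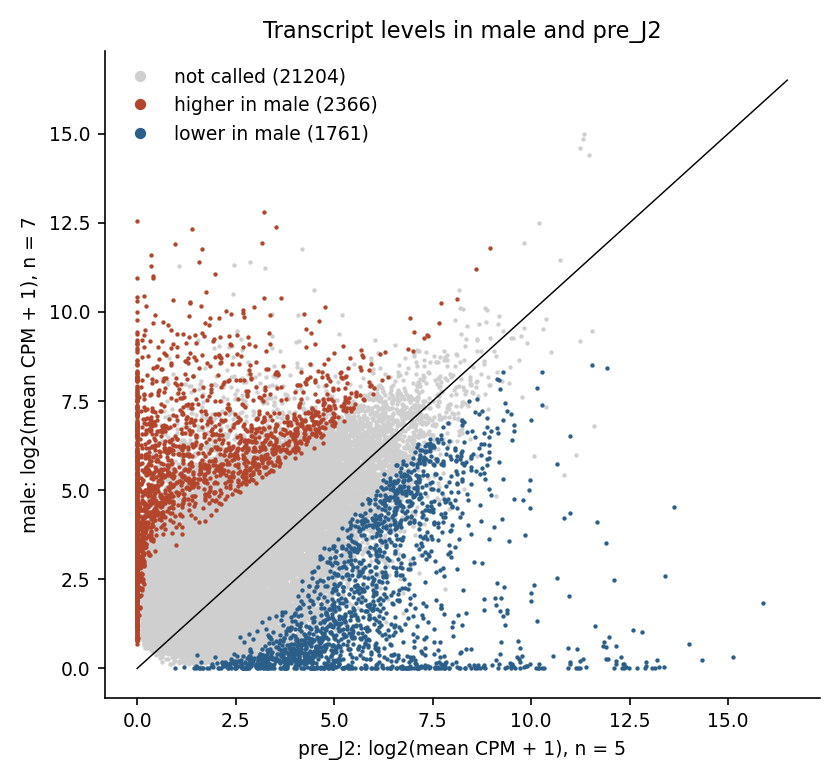
Each point is a transcript tested, with its mean level in males (y axis, n = 7) against that in pre_J2 (x axis, n = 5), both as log2(mean CPM + 1). Red points are the 2366 transcripts higher in male and blue points the 1761 lower, and the line marks equal levels.

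The transcripts higher in male were a moderate part of each male library, and the transcripts lower in male made up most of each pre_J2 library. The higher list took 28.6 ± 3.97% of male counts and 1.24 ± 0.25% of pre_J2 counts (SD). In the 6 other stages its mean share ran from 8.82 to 12.98%, so male stood above and pre_J2 below them. The lower list took 2.25 ± 0.53% of male counts, 57.6 ± 4.19% of pre_J2 counts and between 4.61 and 8.29% in the other stages. The lists were chosen on these values of male and pre_J2, which are a description.

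Most transcripts of each list also had their highest mean in the stage where they were called higher. The call fixes part of this, since no transcript called higher in one of the stages had its highest mean in the other. Among all 25331 tested, the highest mean lay in male for 24.0%, in J4 for 16.4%, in par_J2 for 15.7% and in pre_J2 for 14.8%. Of the 2366 higher transcripts, 1630 (68.9%) had their highest mean CPM in male, 242 in par_J2, 194 in J4_moulting and 160 in J4_female. Where male was highest, the next stage was J4_female for 740 and J4_moulting for 428. Of the 1761 lower transcripts, 1284 (72.9%) peaked in pre_J2 and 239 in J4 (13.6%, under the share of all tested). Where pre_J2 was highest, J4 came next for 520 and par_J2 for 281.

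The 6 transcripts with the strongest evidence of a higher level in male, taken in order of p, were present in every male. Mi_06632.1 stood at 137, 212, 301, 549, 537, 240.2 and 265 CPM in males 1 to 7, against 0 CPM in all 5 pre_J2. It was at least 6449-fold higher in male, taking 3 counts over the pre_J2 libraries as a floor (adjusted p = 3.57e-05, edgeR). No male came near the pre_J2 animals, and its means in the sedentary stages ran from 0.539 CPM in par_J2 and 5.13 in J3 to 29.6 in J4_female and 70.5 in female. The highest female reached 269.8 CPM, above males 1, 2, 6 and 7, and male was called higher against 5 of the 6 stages singly.

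Mi_02112.1 was counted in both stages. Its level was 272, 156, 202, 457, 441, 596 and 586 CPM in males 1 to 7, against 8.0, 3.59, 1.77, 1.96 and 1.58 CPM in pre_J2 1 to 5. The groups did not overlap, and male was higher by 6.45 on the log2 scale (SE 0.66, adjusted p = 4.47e-05, edgeR). J4_moulting (64.1 CPM) and J4_female (62.7 CPM) were the next highest stages by mean.

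The remaining 4 had no count in any pre_J2 and were rare in the sedentary stages. Mi_30139.1 stood at 44.8, 56.2, 77.4, 106, 82.9, 53.7 and 56.4 CPM in males 1 to 7, at least 1397-fold above the pre_J2 floor (adjusted p = 5.02e-05, edgeR). Mi_14276.1 ran from 31.5 to 71.7 CPM in males and was at least 991-fold higher. Mi_17947.1 ran from 32.9 to 218 CPM in males, at least 2189.7-fold above the floor, and Mi_34048.1 from 27.6 to 172 CPM, at least 1928-fold. All of their values in the 63 other libraries lay under those of the males, with highest values of 13.1 (Mi_30139.1), 12.5 (Mi_14276.1), 4.59 (Mi_17947.1) and 18.5 CPM (Mi_34048.1).

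The 4 transcripts of the higher list with the most counts in male belonged to some males only. Mi_06983.1 stood at 728, 1.63, 1.02, 0.334, 19492, 10551 and 18857 CPM in males 1 to 7, against 12.6, 15.8, 12.9, 0 and 0 CPM in pre_J2 1 to 5. Males 5, 6 and 7 were thus far above every pre_J2, male 1 was above them too, and males 2, 3 and 4 lay within the pre_J2 range. The fitted difference was 9.18 on the log2 scale (SE 2.96, adjusted p = 0.0479, edgeR), and it lost its call when male 1, 5, 6 or 7 or any single pre_J2 was left out, with adjusted p between 0.0568 and 0.0901, or males 5 and 7 together (adjusted p = 0.105). Its adjusted p ran from 1.15e-05 to 0.681 over all alternatives.

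Mi_44215.1 and Mi_37669.1 were likewise high in males 5, 6 and 7, lower in male 1 and lowest in males 2, 3 and 4. Mi_44215.1 had 930, 1.44, 9.99, 5.94, 14281, 7629 and 14174 CPM in males 1 to 7, against 12.3, 13.6, 3.79, 4.67 and 18.3 CPM in pre_J2. Mi_37669.1 had 115, 1.44, 4.75, 6.40, 14692, 7430 and 13856 CPM in males, against 7.67, 0, 0, 0.553 and 0 CPM in pre_J2. Both were called (adjusted p = 0.0203 and 0.0271, edgeR), with overlapping groups. The call of Mi_37669.1 was lost without males 5 and 7 (adjusted p = 0.0550) and without any 1 of pre_J2 2 to 5 (adjusted p between 0.0533 and 0.0604), and that of Mi_44215.1 without pre_J2 3 (adjusted p = 0.0513). Over all alternatives the adjusted p ran from 1.24e-07 to 0.457 for Mi_37669.1 and from 3.54e-08 to 0.629 for Mi_44215.1.

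Mi_38777.1 was high in 2 males. It stood at 30.0, 0.884, 3.27, 0, 15726, 449 and 25685 CPM in males 1 to 7 and at 0 CPM in every pre_J2 (adjusted p = 0.0240, edgeR). The call was lost with no low-count filter (adjusted p = 0.0806) and with limma-voom (adjusted p = 0.208), and over the alternatives the adjusted p ran from 8.23e-35 to 0.208. Without males 5 and 7 it was not tested. Outside male, each of these 4 transcripts had its highest stage mean in J4_moulting, at 420.2 (Mi_06983.1), 279 (Mi_44215.1), 375 (Mi_37669.1) and 102 CPM (Mi_38777.1). The highest single J4_moulting animal reached between 744 and 2482 CPM, under males 5 and 7.

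The 6 transcripts with the strongest evidence of a lower level in male were near 0 in every male. Mi_42617.1 had a single count over the 7 males (0.0362 CPM in male 1) against 737, 454, 161, 196 and 228 CPM in pre_J2 1 to 5. Its pooled level was 46632 times lower in male, with a 95% exact interval from 8368 to 1841960 that covers counting error only (adjusted p = 4.70e-06, edgeR). In the 6 other stages no animal passed 0.730 CPM.

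Mi_15518.1 had 2 counts over the males, both in male 5, against 191, 157, 176, 222 and 258 CPM in pre_J2 1 to 5. Its pooled ratio was 16727, with an interval from 4630 to 138133 (adjusted p = 1.78e-05, edgeR). Both transcripts were thus almost without counts in males.

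The next 3 were among the more abundant transcripts of pre_J2. Mi_12093.1 had 0.145 CPM in male 1 and no count in the other males, against 6819, 14422, 10081, 10873 and 10345 CPM in pre_J2 1 to 5. Mi_27059.2 had 4 counts over the males, all in male 1, against 2727 to 7595 CPM in pre_J2, and Mi_27064.1 had 4 counts, all in male 7, against 5045 to 14875 CPM. Outside pre_J2 they were low in every animal, with highest single values of 6.26 (Mi_12093.1), 25.6 (Mi_27059.2) and 37.8 CPM (Mi_27064.1).

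Mi_20109.1 differed from the rest in where else it was found. It stood at 0.109, 0.651, 0.246, 0.334, 0.842, 0.645 and 0.725 CPM in males 1 to 7, against 241, 150, 68.9, 102 and 85.2 CPM in pre_J2 1 to 5. Male was lower, by a log2 fold change of -8.34 (SE 0.66, adjusted p = 2.15e-05, edgeR). Unlike the others it was abundant in the sedentary juveniles, at means of 786 CPM in par_J2 and 245 in J3, and averaged 3.46 CPM in female.

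The 4 transcripts of the lower list with the most counts in pre_J2 took at most 0.00104% of the counts of any male together, against 7.11 to 16.6% in pre_J2. Mi_00245.1 stood at 2.13, 7.82, 3.85, 0.418, 0.632, 2.12 and 1.17 CPM in males 1 to 7, against 50098, 29060, 68387, 69736 and 84445 CPM in pre_J2 1 to 5. The log2 fold change was -14.67 (SE 1.47, adjusted p = 4.01e-05, edgeR), and no animal of another stage passed 18.5 CPM. CPM values take no account of transcript length, so they compare animals and not transcripts.

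Mi_26420.1 ran from 0 to 1.29 CPM in males and from 17069.6 to 43254 CPM in pre_J2. Mi_00602.1 ran from 0 to 0.876 CPM in males and from 13133 to 28769 CPM in pre_J2, and Mi_26995.1 from 0 to 2.51 CPM in males and from 8088 to 24406 CPM in pre_J2. In all 3, every pre_J2 lay far above every male. Of the 50 transcripts most abundant in male, 31 were called higher in male, against 9.34% of all tested. Of the 50 most abundant in pre_J2, 43 were called lower in male, against 6.95% of all tested. Both sets were picked by a high level in 1 of the stages compared, which favours a call in that direction.

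**Figure D3:**
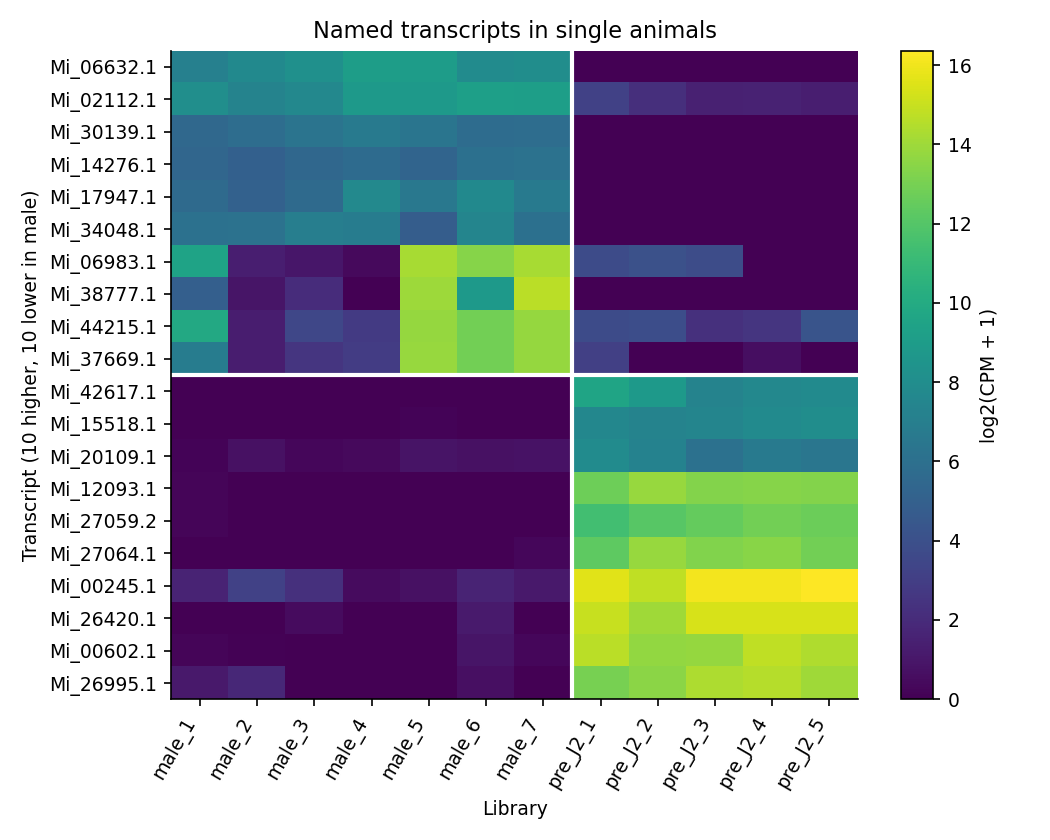
Level of 20 named transcripts (rows) in each male and pre_J2 library (columns), as log2(CPM + 1), with the 10 higher in male above and the 10 lower in male below. The first 6 rows are filled in all males, rows 7 to 10 are brightest in males 5 and 7, and the lower rows are bright in all pre_J2.

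Few transcripts could be placed as steady between the stages. In 29 of the 25331 the 95% interval of the difference lay within 1 log2 unit of 0, and the 3 with the highest levels are given here. Mi_07134.1 averaged 397 ± 183 CPM in males and 314 ± 76.4 CPM in pre_J2, with an interval from -0.95 to 0.79. Mi_41636.1 averaged 307 ± 84.8 CPM in males and 243 ± 38.0 CPM in pre_J2 (-0.88 to 0.78), and Mi_16597.1 averaged 275 ± 125 CPM in males and 202 ± 31.6 CPM in pre_J2 (-0.82 to 0.98). The 3 did not stand alike against the sedentary stages. Mi_41636.1 was higher in both than the mean of the 6 stages, by 1.82 in male and 1.55 in pre_J2, whereas Mi_16597.1 was lower in both, with log2 fold changes of -1.17 in male and -1.57 in pre_J2.

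Of 552 genes with 2 or more transcripts tested, 31 had 2 or more called and 1 had calls in opposite directions. In that gene, Mi_07855.1 was lower in male, at 142, 12.2, 74.4, 28.3, 15.8, 83.1 and 19.9 CPM in males 1 to 7 against 259, 417, 257, 339 and 245 CPM in pre_J2 (log2 fold change -2.82, SE 0.64, adjusted p = 0.0104, edgeR). Mi_07855.2 was counted in 5 of 7 males, at up to 4.87 CPM, and in no pre_J2 (adjusted p = 0.0481, edgeR). Its call was lost when any single pre_J2 was left out, with adjusted p between 0.0741 and 0.0832. The second form was thus a small part of the gene's counts, and its adjusted p lay close to the threshold.

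Against the mean of the 6 sedentary stages, in one fit of all 75 libraries, 5959 of 39835 transcripts tested were higher in male (15.0%) and 7626 lower (19.1%). For pre_J2, 4573 were higher (11.5%) and 7901 lower (19.8%). Transcripts called the same way in both numbered 1101 higher (2.76%) and 1961 lower (4.92%). Both contrasts share the same 63 sedentary libraries. With DESeq2 size factors in place of TMM, pre_J2 had 6512 higher and 5589 lower, and the shared lists held 1434 higher and 1462 lower. With library totals alone the shared lists held 883 higher and 2128 lower, so the balance of the directions depends on the scaling. The median of all tested transcripts in pre_J2 was -0.60 with TMM, -0.10 with DESeq2 size factors and -0.77 with library totals.

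Demanding a call against each of the 6 stages singly, in both male and pre_J2, left 97 shared higher and 296 shared lower transcripts. Without males 2, 3 and 4 the shared higher list held 701 transcripts, 651 of them among the 1101, and the shared lower list 1493. Without males 5 and 7 the lists held 1008 and 1599.

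**Figure D4:**
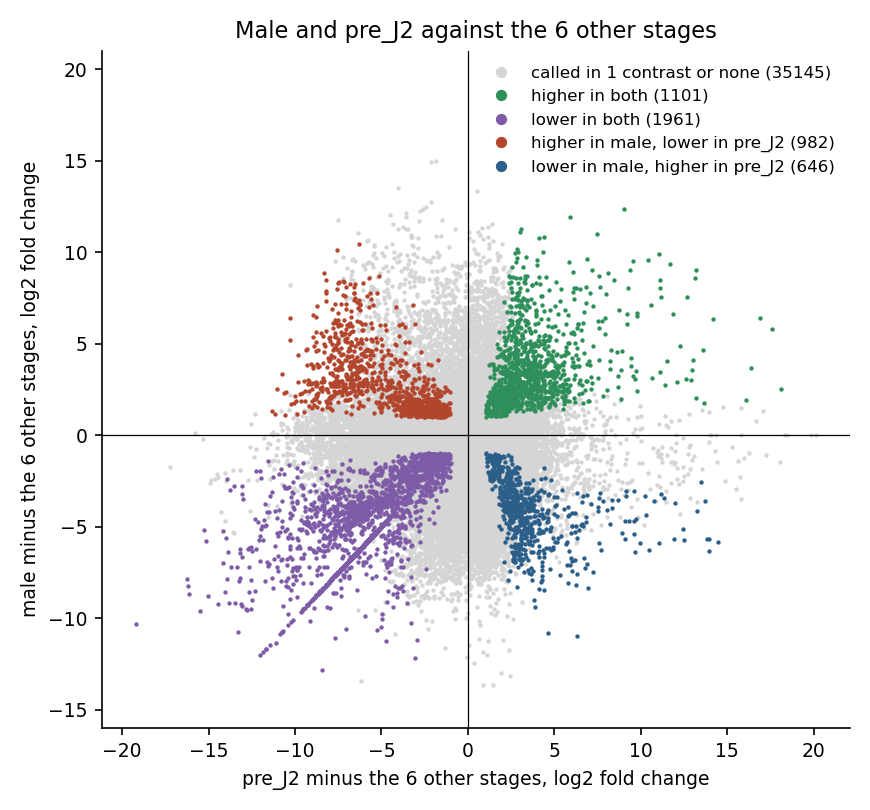
Log2 fold change of male (y axis) against that of pre_J2 (x axis), each minus the mean of the 6 other stages, for 39835 transcripts. Green and purple points are the 1101 higher and 1961 lower in both, red and blue the 982 and 646 called in opposite directions, and the contrasts share 63 libraries. The straight purple band is made of transcripts with no count in either stage, whose fitted values are no bound.

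The shared higher transcripts had a median fitted log2 fold change of 3.07 in male and 3.22 in pre_J2, against -0.48 and -0.60 for all tested. Both medians follow in part from the choice of the list. Of its 1021 members tested between the stages, 25 were called higher and 93 lower in male. Among all 25331 tested between the stages, 2366 (9.34%) were called higher and 1761 (6.95%) lower. Members without a call are not thereby alike in the stages, since that fit resolved large changes best. In the 12 animals the median level of the list ran from 2.78 to 4.21 in males and from 3.74 to 4.48 in pre_J2 on the log2(CPM + 1) scale, and from 0 to 2.83 in the other 63. Of the list, 457 were counted in all 12 animals, against 7404 of all 45378 transcripts, and 983 had a mean of 1 CPM or more in both stages. These counts also follow in part from the choice of the list. The highest mean CPM lay in pre_J2 for 554 of the list and in male for 488, and in a sedentary stage for the rest. Some calls rest on very low male levels, such as Mi_12028.2, which averaged 0.0878 CPM in males and 4572 CPM in pre_J2. Among males, only male 1 had counts of it (0.615 CPM). Its male mean lay under those of J4_moulting (0.192 CPM) and J4_female (0.120 CPM). Male was called higher against 0 of the 6 stages singly. Mi_12028.2 was picked out after its values were seen.

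As a share of counts, the list split the males. It took 4.08, 39.7, 32.0, 32.7, 6.0, 8.31 and 6.49% of counts in males 1 to 7, against 20.6, 12.8, 12.3, 11.9 and 14.1% in pre_J2 1 to 5 and stage means from 0.58 to 2.31% in the others. Males 2, 3 and 4 stood above every pre_J2, and males 1, 5, 6 and 7 below. All 7 lay above every stage mean of the sedentary animals, while single J4_moulting animals reached 5.42%, above male 1.

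Mi_25779.1, Mi_42693.2, Mi_25788.1 and Mi_17692.2 made most of that split and were picked out for it after their values were seen. Mi_25779.1 had 200, 97776, 54826, 76545, 21.5, 13.3 and 20.5 CPM in males 1 to 7, against 3397, 3475, 1456, 1885 and 2721 CPM in pre_J2 1 to 5. Its median in the sedentary animals was 54.6 CPM. Males 5, 6 and 7 lay under that median, and males 1, 2, 3 and 4 and every pre_J2 above it. Together the 4 took 28.8, 21.3 and 25.9% of counts in males 2, 3 and 4, between 0.00673 and 0.0835% in males 1, 5, 6 and 7, and between 0.635 and 1.46% in pre_J2. Within each pre_J2 their levels lay within 1.45-fold of each other. Whether near-identical copies share reads among them was not tested.

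Without these 4, the remaining 1097 transcripts took 7.60 ± 2.55% of counts in males (range 3.99 to 10.9%), 13.3 ± 3.33% in pre_J2 (range 11.1 to 19.1%) and stage means of 0.58 to 1.85% in the others (SD). Single animals of J4_moulting reached 8036 CPM of Mi_25788.1 and single animals of J4_female 6430 CPM of Mi_42693.2. Both values lay above every pre_J2, where the highest were 3499 CPM of Mi_25788.1 and 3714 CPM of Mi_42693.2. Neither transcript was thus absent from the sedentary animals. Against single stages, pre_J2 was called higher than 2 of the 6 for Mi_42693.2. It was called higher than 3 for each of Mi_25779.1, Mi_25788.1 and Mi_17692.2. Male was called higher than all 6 for each of these 4.

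**Figure D5:**
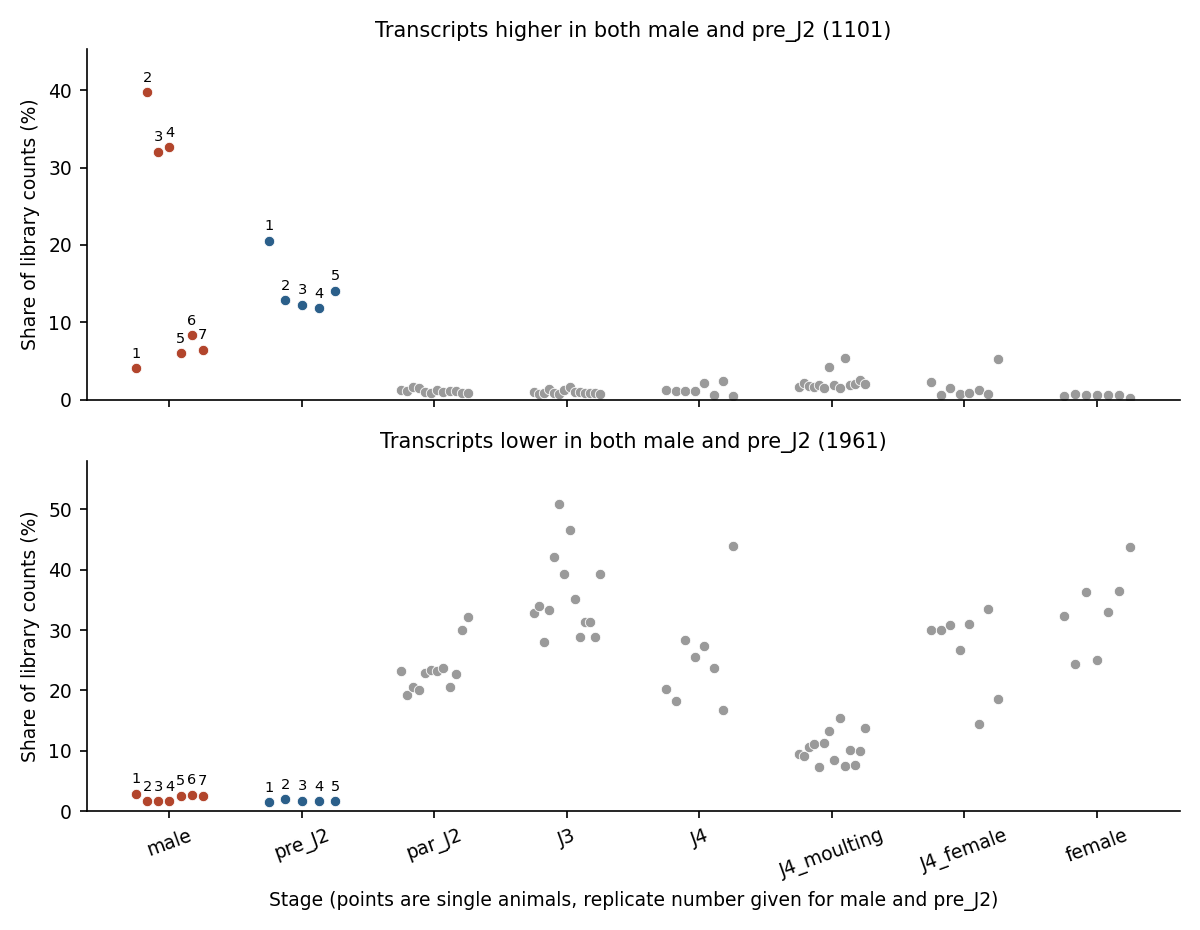
Share of a library's counts (y axis, %) taken by the 1101 transcripts higher in both male and pre_J2 (upper) and by the 1961 lower in both (lower), for each animal by stage, with replicate numbers for male and pre_J2. Males 2, 3 and 4 stand at 32.0 to 39.7% in the upper panel and males 1, 5, 6 and 7 at 4.08 to 8.31%, and all 12 animals stand near the bottom of the lower one.

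The 5 named shared higher transcripts were abundant in all 12 animals. Mi_20869.1 stood at 197, 681, 510.2, 501, 485, 909 and 623 CPM in males 1 to 7 and at 890.2, 702, 928, 789.9 and 1439 CPM in pre_J2 1 to 5, against a median of 85.7 CPM (range 10.0 to 508) in the 63 others. It was higher in male by 3.05 (SE 0.21, adjusted p = 6.93e-20) and in pre_J2 by 3.84 (SE 0.23, adjusted p = 2.47e-24), both by edgeR on the log2 scale. Male 1 was the lowest of the 12, and males 1, 4 and 5 lay within the range of the 63.

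Mi_22786.1 averaged 753 ± 399 CPM in males and 897 ± 245 CPM in pre_J2, against a median of 87.2 CPM in the 63 others, with log2 fold changes of 3.34 and 3.50. Mi_35780.1 averaged 803 ± 567 CPM in males and 569.8 ± 150.4 CPM in pre_J2, against a median of 59.0 CPM. Mi_16923.1 averaged 615 ± 284 CPM in males and 495 ± 168 CPM in pre_J2, and Mi_08860.1 averaged 636 ± 244 CPM in males and 852 ± 267 CPM in pre_J2, against medians of 88.4 and 128 CPM in the 63 others. None of the 5 was called between male and pre_J2, and all 5 were called against each of the 6 stages singly in both. The highest of the 6 stage means was in J4_moulting for each of them. All 5 overlapped with the 63 others in single animals. For Mi_22786.1, males 1, 4, 5 and 7 and pre_J2 2 and 3 lay under the highest of the 63 (723 CPM). Male 1 lay under the highest of the 63 for Mi_35780.1 (103 against 271 CPM) and Mi_16923.1 (180 against 268 CPM). Male 5 did so for Mi_08860.1 (330 against 352 CPM).

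Full separation from all sedentary animals was rare. In Mi_38519.1 and Mi_39208.1, of all transcripts, the 12 animals lay above the other 63, and both were found by that search. Mi_38519.1 stood at 30.8, 120.0, 84.8, 37.8, 37.5, 85.9 and 47.6 CPM in males 1 to 7 and at 222, 92.4, 65.1, 132 and 134 CPM in pre_J2 1 to 5, against at most 20.4 CPM in the others. Mi_39208.1 stood at 3.07, 4.37, 5.73, 4.64, 44.6, 43.5 and 97.6 CPM in males and from 22.6 to 44.1 CPM in pre_J2, against at most 2.10 CPM. Males 1 to 4 were thus only slightly above the sedentary animals for the second of these.

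The shared lower transcripts were mostly low or without counts in both stages. They took 2.29 ± 0.56% of male and 1.75 ± 0.18% of pre_J2 counts, against stage means from 10.4% in J4_moulting to 35.8% in J3 (SD). Of the 1961, 481 had no count in any of the 12 animals. Among all 45378 transcripts, 4943 had none in the 12, and 4186 of those were counted in other stages. With transcripts without counts placed at the bound of 3 counts, the median log2 fold change was -3.98 in male and -3.72 in pre_J2, against -0.48 and -0.57 for all tested.

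The 5 named shared lower transcripts were nearly silent in male and pre_J2 and counted in all 63 others. Mi_10514.1 had 1.81, 0, 0, 0, 1.79, 0 and 0.781 CPM in males 1 to 7 and no count in pre_J2, against a median of 221 CPM (range 22.8 to 1869) in the 63 others. Mi_14487.1 had counts in males 5 and 7 only, at 0.421 and 0.223 CPM, and none in pre_J2, against a median of 40.8 CPM. Mi_16111.1 had no count in males and 0.528 CPM in pre_J2 5, against a median of 52.3 CPM.

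Mi_26883.1 reached 1.54 CPM in males and 0 in pre_J2, against a median of 66.2 CPM, and Mi_11740.1 reached 0.446 CPM in males and 0.726 CPM in pre_J2, against 98.4 CPM. Each was called lower in both stages against each of the 6 stages singly. For the first 4 of these the lowest of the 63 exceeded every male and pre_J2 animal, and in Mi_11740.1 the lowest of the 63 was 0.276 CPM.

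Over all transcripts, the 12 animals lay below all 63 others in 14. Of these, the 3 with the highest level in the lowest sedentary animal are given. Mi_41713.1 averaged 81.6 ± 56.7 CPM in males and 90.2 ± 48.1 CPM in pre_J2, against stage means from 362 CPM in J4_moulting to 1933 CPM in par_J2. Mi_09542.1 averaged 42.7 ± 25.7 CPM in males and 40.7 ± 28.2 CPM in pre_J2, against 253 CPM in J4_moulting to 1289 CPM in par_J2. Mi_05247.1 averaged 70.8 ± 28.4 CPM in males and 94.1 ± 41.6 CPM in pre_J2, against 413 CPM in female to 1250.4 CPM in par_J2. In these 3, male and pre_J2 were low but clearly counted.

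Opposite changes against the sedentary stages were also present. Higher in male and lower in pre_J2 were 982 transcripts (2.47%), and lower in male and higher in pre_J2 were 646 (1.62%). Demanding a call against each of the 6 stages singly, in both stages, left 47 and 21. With the deposited filtered table the counts were 665 and 338. Each of the 4 named below was called in both stages against the mean of the 6 and missed the call against at least 1 of them singly. Mi_21493.1 stood at 21.9, 5.35, 7.33, 20.3, 119, 31.7 and 87.2 CPM in males 1 to 7 and at 0 CPM in all pre_J2, against a median of 3.29 CPM in the 63 others. Mi_33887.1 ran from 0.745 to 179 CPM in males and was at 0 CPM in pre_J2, against a median of 4.10 CPM. Against J4_moulting alone the order differed by transcript, with means of 41.8 CPM in male and 28.8 in J4_moulting for Mi_21493.1, and 61.3 CPM in male and 118 in J4_moulting for Mi_33887.1.

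In the other direction, Mi_28645.1 had no count in any male and stood at 1082, 1935, 1261, 747 and 776 CPM in pre_J2 1 to 5, at least 52284-fold lower in male (adjusted p = 3.57e-05, edgeR). Mi_36323.1 had 7 counts over the males, all in male 1, and stood at 363, 472, 301, 81.3 and 178 CPM in pre_J2. The sedentary means of Mi_28645.1 were 351 CPM in par_J2, 52.0 in J3 and 0.599 in female, and those of Mi_36323.1 were 196, 41.5 and 1.24 CPM in the same stages.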

How the data were processed

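The data were whole-number transcript counts of single nematodes, in tables deposited by the authors without normalization. The submitters' processing notes name HISAT2 2.2.1 and StringTie 2.2.1. Not given in the sources used here are the genome build, annotation, strand setting and treatment of near-identical copies, so transcripts with a close copy or an antisense partner are uncertain. The full table holds 45378 transcripts of 44267 genes, and each column name equals a library title.

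Male against pre_J2 was fitted on those 12 libraries, and both stages against the mean of the 6 others on all 75, with edgeR 4.0.16 in R 4.3.3 (filterByExpr, TMM, robust quasi-likelihood test). Calls were made where the adjusted p (Benjamini-Hochberg) was under 0.05 and the log2 fold change was 1 or more in size. CPM divides counts by the library total. Correlations used transcripts with 10 or more counts in 5 or more libraries, and list levels log2(CPM + 1). Exact permutation tests were two-sided. Python 3.11.15, numpy 2.4.6 and pandas 2.3.3 were used. Alternatives used DESeq2 1.42.0 and limma 3.58.1, other scalings and filters, a replicate block and libraries left out.

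The members and lists were chosen with earlier results of these data known. Named transcripts follow a rule: per direction, the 6 called with the smallest p that reached 1 CPM in 80% of the higher stage's animals, the 4 with the highest mean CPM, 5 shared and 2 opposite, with 3 steady ones and the gene with opposite isoforms. Gene lists and cell type markers needed names and were not run. Nothing says that animals of a stage came from separate cultures, so p-values measure the spread between these animals. No batch or date is given, so stage and any batch that follows it cannot be told apart. No 2 male libraries and no 2 pre_J2 libraries agreed within sampling noise, and other pairs were not checked. Libraries carry no molecular identifiers, so floors and intervals cover counting error only.

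On simulated counts with many transcripts changed (1334, 1333 and 1333 per fold, among 23642 tested), male against pre_J2 recovered 4.57% of 4-fold, 40.1% of 16-fold and 65.4% of 64-fold changes, with 31 of 1499 calls false. With 67, 67 and 66 changed, it recovered 0, 0 and 18.2%. The simulated libraries were drawn independently around a single mean per transcript, with no built-in split among the males. Only transcripts above a minimum mean count were changed. These rates thus need not hold for the calls made on the real counts.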

Additional observations from a re-analysis of the deposited data

Results flagged for a closer look

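Of 70 groups of 5 or 7 animals checked for an animal far from the others, 14 were flagged, where chance flags about 1 in 20. Most flags fell on transcripts picked as lower in male, where a few counts set 1 male apart. That rate does not apply to them. Male 4 had 18969 transcripts detected, under the other males. On the log2(CPM + 1) scale, male 1 was low for the shared transcripts Mi_20869.1 (7.63) and Mi_16923.1 (7.50). In transcripts lower in male, 1 male held the highest or the only counts, namely male 1 for Mi_42617.1 (0.051), Mi_12093.1 (0.195), Mi_27059.2 (0.195) and Mi_36323.1 (0.326), male 5 for Mi_15518.1 (0.144), male 6 for Mi_26420.1 (1.20) and Mi_00602.1 (0.907), and male 7 for Mi_27064.1 (0.291). Among pre_J2, animal 1 was high for Mi_37669.1 (3.12), animal 5 for Mi_16111.1 (0.612), and animal 3 was low for Mi_41636.1 (7.48).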

How the results depend on the processing

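Male against pre_J2 had 4127 calls. DESeq2's own test gave 7499 (4501 higher, 2998 lower), limma-voom with sample weights 6960 (3892 and 3068), and the fit of all 75 libraries 14447 (7998 and 6449), where the stages share one estimate of the spread. The deposited filtered table, which drops transcripts holding 16.8 ± 6.13% of male and 44.2 ± 3.82% of pre_J2 counts, gave 2699 (1106 lower), and without males 5 and 7 1146 were lower. No low-count filter gave 2224 higher and 2405 lower. Of the 4127, 2494 kept their call without males 2, 3 and 4 and 2645 without males 5 and 7, both chosen after seeing the data. Leaving out single animals gave 3002 to 4161 calls, 1621 to 2493 higher and 1367 to 1668 lower.

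The replicate number as a block gave 1355 calls (739 higher, 616 lower), 1238 of them among the 4127. Same-numbered animals did not deviate together over all tested transcripts (correlations from -0.035 to 0.014). That check could miss a pairing that acts on some transcripts, so it does not exclude one. With the block the shared lists held 748 higher and 1512 lower, and the opposite lists 651 and 376.

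The shared lists held 700 higher and 1023 lower transcripts with the filtered table, of which 587 and 1010 were among the main 1101 and 1961. With limma-voom they held 645 and 1308, of which only 507 and 863 were among the main lists. They held 97 and 296 against each stage singly, and 701 higher without males 2, 3 and 4. Leaving out single animals gave 943 to 1093 higher and 1462 to 1943 lower. The genes with opposite isoform calls numbered 14 in the fit of all libraries, 4 without males 2, 3 and 4, 0 without males 5 and 7, and 0 to 2 with single animals left out. With single animals left out, the top-50 share differed by -14.3 to -10.3 percentage points, the correlation gap by 0.221 to 0.250 and transcripts detected by 2122 to 4324. Among the 26 named transcripts called between male and pre_J2, the alternatives were not followed for the 4 with opposite changes. Of the rest, 6 lost the call under some alternative and none reversed. The cause was not tested.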

Other observations

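Genes on the lists had a neighbour by identifier number on the same list more often than tested genes overall. Of 2361 genes higher in male, 23.3% had a gene numbered 1 away that was also higher in male, against 13.3% of all tested genes. The shares were 17.1 and 8.44% for genes lower in male, 14.6 and 5.09% for genes higher in both stages, and 17.7 and 8.64% for genes lower in both. What the numbering follows is not given in the sources used here, and genes are not independent. Male shared 10 of its 50 most abundant transcripts with J4_moulting, 7 with J4_female, 6 with par_J2, 5 with J4, 4 with J3, 3 with pre_J2 and 2 with female. Pre_J2 shared 3 with J4_female, 2 each with J3, J4 and J4_moulting, and 0 with par_J2 and female. The 3 shared by male and pre_J2 were Mi_17692.2, Mi_25779.1 and Mi_42693.2. They stood at 40851 CPM or more in males 2, 3 and 4, and at 444 CPM or less in the other males.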
